A study of Homo sapiens with 4 samples.

Results

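Plasminogen activators, matrix metalloproteinases and their inhibitors were followed as 9 genes, PLAU, PLAT, PLAUR, SERPINE2, SERPINB2, MMP1, MMP9, MMP14 and TIMP1. They were matched by symbol to the annotation of the array, and each probe set that named no other gene was taken. Of 19775 genes with such a probe set in the whole table, 8 were members, with 15 of the 54675 probe sets between them. SERPINB2 had no probe set under its name in the annotation used here, so no value is given for it.

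The study hybridised total RNA to 4 Affymetrix U133 Plus 2.0 arrays. The cells were MCF10A, a non-tumorigenic line of human mammary epithelium, kept in DFCI-1 medium and harvested during normal growth. Both groups expressed short hairpin RNAs: a control hairpin (n = 2 arrays) or hairpins against both Cbl and Cbl-b, E3 ubiquitin ligases that act on activated receptor tyrosine kinases (n = 2 arrays). Whether the hairpin lines were clones or pools, and whether replicates were grown separately, is not stated, so each p-value reflects array-to-array spread that may be only technical.

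On its brightest probe set CBL read 126 and 84.4 on the control arrays and 31.1 and 28.97 on the others (log2 change -1.37 ± 0.15 SE, limma adjusted p = 0.00139). Averaged over all its probe sets the change of CBL was -0.41 (adjusted p = 0.0158). CBLB read 64.3 and 70.05 on the control arrays and 94.8 and 99.5 on the others, a rise (log2 change 0.45 ± 0.09 SE, limma adjusted p = 0.0148). Averaged over its probe sets CBLB stood at 0.28 (adjusted p = 0.0363), and without double knockdown replicate 1 or 2 the call was lost (adjusted p = 0.0861 and 0.132). The RNA signal of CBLB therefore went against its label, and the second group is called "labelled double knockdown" wherever a direction is drawn. The arrays do not measure CBLB protein. CBLC, for which no hairpin is described, was called higher too (log2 change 0.45 ± 0.09 SE, limma adjusted p = 0.0162). Without probe sets with IDs ending in _x_at or _s_at CBLC stood at 0.03 (adjusted p = 0.908). Keratins of the labelled cell type were bright: KRT5 read 8245 and 7866 in the control, and all 7 epithelial markers with a probe set lay above the brightness minimum of 14.7, which is the median of all probe sets. Fibroblast markers summed to 586 and 609.5 on the control arrays and 548 and 559 on the labelled double knockdown arrays. Of these 10 markers, 5 lay below the minimum, among them COL3A1, LUM and POSTN, and 1, DCN, was called lower. Leukocyte markers summed to between 86.5 and 90.7 on the 4 arrays, and endothelial markers to between 75.8 and 84.9. Only 3 of 6 leukocyte and 2 of 6 endothelial markers reached the minimum, and none of these was called by limma or had an unadjusted p under 0.05. The summed epithelial markers were lower on the labelled double knockdown arrays, at 17670 and 17340 against 28860 and 28490, with KRT14 and KRT5 lower and KRT18 and EPCAM higher among 4 called. Their part in the results below was not tested.

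These genes form linked systems for breaking down protein outside the cell. PLAU (urokinase) and PLAT (tissue plasminogen activator) cut plasminogen to plasmin, PLAUR holds urokinase on the cell surface, and the serpins SERPINE2 (protease nexin-1) and SERPINB2 inhibit the activators. Matrix metalloproteinases cut collagens and other matrix proteins, and TIMP1 binds and blocks many, but not all, of these enzymes. In mammary epithelium these enzymes are known from duct growth, involution and tumour invasion.

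Of the 8 members tested, 1 was called higher and 1 lower at a limma adjusted p under 0.05, and both were inhibitors. TIMP1 rose 1.31-fold and SERPINE2 fell 1.60-fold, while no activator, receptor or metalloproteinase among the members was called. Over all 12951 genes tested 16% were called, 9.41% higher and 6.60% lower, so 2 calls among 8 members is not a result about the members as a set. The median log2 change of the members was 0.08 against -0.0086 over all genes tested. The groups did not overlap for 5 of the 8 members, a separation found for 57.5% of all genes tested. Changes are on the log2(intensity + 16) scale, which understates those of dim genes, and every interval below covers 95%.

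**Figure D1:**
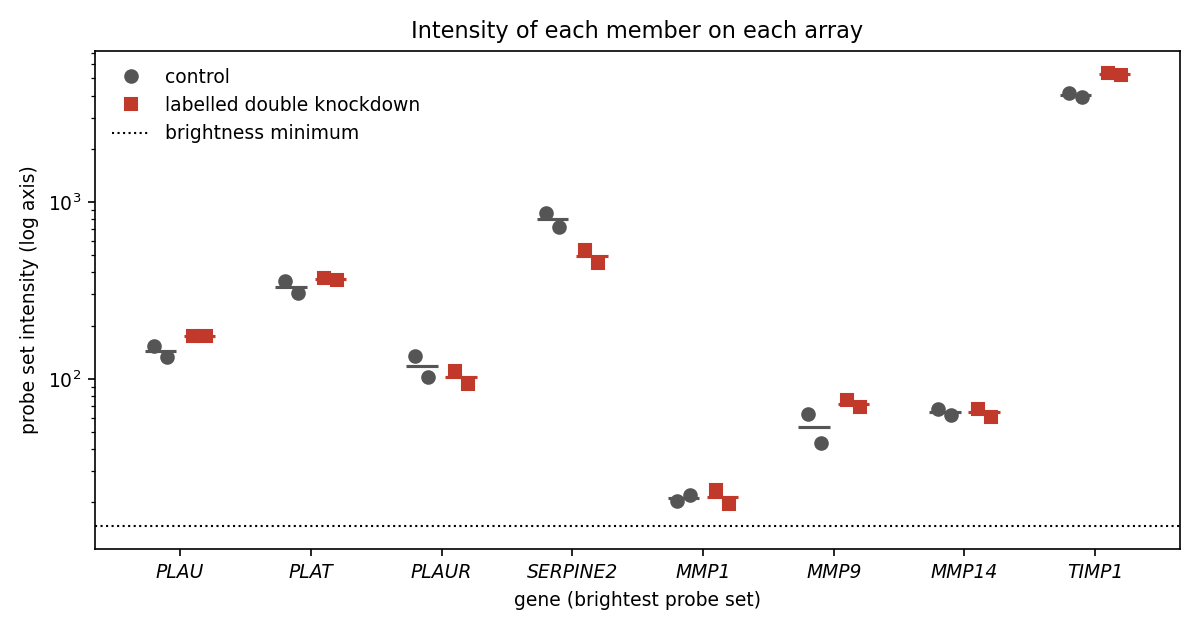
Intensity of the brightest probe set of each of the 8 members on each array (log axis; circles, control; squares, labelled double knockdown; horizontal lines, group means; n = 2 per group; dotted line, brightness minimum). The TIMP1 squares, at 5339 and 5229, lie above both circles, those of SERPINE2, at 536 and 451, lie below both, and MMP1 lies closest to the minimum.

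TIMP1, the secreted inhibitor of metalloproteinases, had 1 probe set, on which the control arrays read 4132 and 3944 and the labelled double knockdown arrays 5339 and 5229. Both labelled double knockdown values were higher than both control values, and the gap between groups was wider than the gap within either. The group means were 4038 ± 133 (SD, n = 2) and 5284 ± 77.6 (n = 2), a log2 change of 0.39 ± 0.09 SE with an interval of 0.19 to 0.58 (limma adjusted p = 0.0213). This call rested on each of 3 arrays: the adjusted p was 0.0524 without control replicate 2, 0.154 without double knockdown replicate 1 and 0.138 without double knockdown replicate 2. The log2 change itself lay between 0.35 and 0.43 under the 15 alternatives, with adjusted p from 0.00343 to 0.154. With a constant of 1 in place of 16 it was 0.39 at adjusted p = 0.0521.

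SERPINE2, which inhibits thrombin and both plasminogen activators, read 869.7 and 726 in the control against 536 and 451 in the labelled double knockdown on its bright probe set (212190_at). The groups did not overlap, and the lower control array stood closer to the labelled double knockdown arrays than the other did. The means were 798 ± 102 (SD, n = 2) and 493.5 ± 59.8 (n = 2), a log2 change of -0.67 ± 0.12 SE with an interval of -0.96 to -0.39 (limma adjusted p = 0.0107). Without double knockdown replicate 2 the change was -0.56 at adjusted p = 0.0864, and over the 15 alternatives the adjusted p ran from 0.00444 to that value. A further probe set of SERPINE2 (227487_s_at) read 6.53 and 7.75 in the control against 5.91 and 6.70 in the labelled double knockdown, below the brightness minimum, and was not tested. Averaged over both probe sets, the change was -0.36, with adjusted p = 0.0195.

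The promoters of TIMP1 and SERPINE2 are shown because these were the members that passed the test. Each sequence is the 250 bases before an annotated start, from RefSeq on GRCh38.p14, 5′ to 3′ along the gene's strand. Capitals mark 4 motifs searched on both strands, so that reverse complements are in capitals too: the SP1 box (GGGCGG), the box named after its letters CCAAT, the PEA3 site (AGGAAG) and the AP-1 site (TGANTCA). No 2 of these matches overlapped. TIMP1 lies on chromosome X at chrX:47582186-47582435 (plus strand). SERPINE2 has a pair of starts on the minus strand, with windows at chr2:224031479-224031728 (first) and at chr2:224038641-224038890 (second). Along that strand the first window lies downstream of the second.
TIMP1: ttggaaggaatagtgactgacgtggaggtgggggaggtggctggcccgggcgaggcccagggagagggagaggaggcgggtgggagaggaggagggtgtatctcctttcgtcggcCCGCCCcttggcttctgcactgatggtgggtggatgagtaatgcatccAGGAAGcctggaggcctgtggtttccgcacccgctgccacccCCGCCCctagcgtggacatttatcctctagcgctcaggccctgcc
SERPINE2, first window: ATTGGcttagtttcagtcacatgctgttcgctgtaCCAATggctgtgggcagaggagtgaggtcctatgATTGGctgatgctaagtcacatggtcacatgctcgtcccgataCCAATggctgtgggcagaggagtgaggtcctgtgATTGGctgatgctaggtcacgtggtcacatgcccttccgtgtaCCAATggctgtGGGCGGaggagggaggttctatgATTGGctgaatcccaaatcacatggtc
SERPINE2, second window: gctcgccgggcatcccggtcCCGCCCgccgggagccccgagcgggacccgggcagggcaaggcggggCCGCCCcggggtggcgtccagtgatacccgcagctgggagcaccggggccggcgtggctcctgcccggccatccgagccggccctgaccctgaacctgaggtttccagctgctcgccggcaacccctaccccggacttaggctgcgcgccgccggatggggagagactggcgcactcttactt

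The TIMP1 window held 2 matches to GGGCGG and 1 to AGGAAG. In the first SERPINE2 window CCAAT occurred 7 times, alternating between strands, in a stretch that repeats: shifted by 77 bases, 127 of 173 compared bases were identical (73.4%). As many matches to CCAAT were found in 7 of 35116 windows of that length in the table (0.0199%), in which a gene can have several windows that overlap. The second SERPINE2 window held 2 matches to GGGCGG and none to CCAAT. Of all windows 42.6% held GGGCGG and 32.01% held CCAAT. A match to AGGAAG was found in 28.7% of them and one to TGANTCA in 6.57%. Of the 9 members 6 had a window in the table, 8 windows in all, and TGANTCA occurred in those of PLAUR and SERPINB2. Only exact matches to these letters were counted, so variants of a site are left unmarked. A match is a description of letters, and the arrays do not show which start was used or what bound there.

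Among the activators, PLAU read 154 and 133 in the control against 174 and 175 in the labelled double knockdown on its brighter probe set (205479_s_at). Both labelled double knockdown values lay above both control values, but the difference did not pass the test (log2 change 0.26 ± 0.10 SE, interval 0.04 to 0.48, limma adjusted p = 0.106). Its other probe set (211668_s_at) read 82.3 and 78.1 against 95.5 and 81.02, with a log2 change of 0.11 and adjusted p = 0.515 over all probe sets. Both carry an ID ending for probe sets that can match several transcripts. PLAT had 1 probe set, at 356 and 307 in the control against 369 and 362 in the labelled double knockdown. The higher control array of PLAT lay close to both arrays of the other group, and the log2 change was 0.14 ± 0.10 SE (interval -0.09 to 0.37, limma adjusted p = 0.395). It depended on the control pair, at 0.24 without control replicate 1 and 0.037 without control replicate 2. PLAU stood at 0.17 without control replicate 2.

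PLAUR, the urokinase receptor, overlapped between groups on its brightest probe set (211924_s_at), which read 135 and 103 in the control against 111 and 93.4 in the labelled double knockdown (log2 change -0.18 ± 0.13 SE, interval -0.49 to 0.12, limma adjusted p = 0.403). The next (210845_s_at) read 107 and 91.03 against 95.5 and 93.06 and overlapped as well. On the dimmest (214866_at) the groups were apart, at 64.3 and 75.5 against 59.5 and 57.2, with a log2 change of -0.20 ± 0.10 SE and adjusted p = 0.216 over all probe sets. All 3 probe sets had a negative change, from -0.06 to -0.20, and none was called. The value depended on the control pair: the change of PLAUR was -0.012 without control replicate 1 and -0.36 without control replicate 2.

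The metalloproteinases were dimmer than the inhibitors on these probe sets, whose levels are not comparable between genes, and none of 3 was called by limma, with 1 at an unadjusted p under 0.05. MMP1, the interstitial collagenase, read 20.4 and 21.9 in the control against 23.6 and 19.5 in the labelled double knockdown. Its groups overlapped, with a log2 change of 0.012 and an interval of -0.20 to 0.23. At this brightness the added constant makes up a large part of the value, so the interval says little about MMP1 below it.

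MMP9, gelatinase B, read 63.3 and 43.1 in the control against 75.5 and 69.3 in the labelled double knockdown. The groups were apart, and the control arrays lay further from each other than the labelled double knockdown arrays did. The log2 change was 0.37 ± 0.14 SE (interval 0.05 to 0.69, unadjusted p = 0.0296, limma adjusted p = 0.115). Without control replicate 1, the higher of the control pair, it was 0.58 and passed the test (adjusted p = 0.0195), while without control replicate 2 it was 0.16 (adjusted p = 0.337). Over its 13 alternatives the adjusted p ran from 0.0195 to 0.384.

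MMP14, a membrane-anchored metalloproteinase that activates the gelatinase MMP2, had 4 probe sets above the minimum. The brightest (160020_at) read 67.8 and 62.4 in the control against 67.9 and 61.2 in the labelled double knockdown, with a log2 change of -0.010 ± 0.09 SE and an interval of -0.22 to 0.20. Groups overlapped on 202828_s_at, at 66.4 and 47.9 against 58.6 and 54.8, and on 217279_x_at, at 16.7 and 14.9 against 15.02 and 15.8. On 202827_s_at the arrays of a group nearly coincided, at 32.1 and 31.9 in the control against 28.7 and 28.8 in the labelled double knockdown, for a log2 change of -0.10 ± 0.08 SE and adjusted p = 0.475. That was the change of MMP14 furthest from 0 on any of its probe sets.

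**Figure D2:**
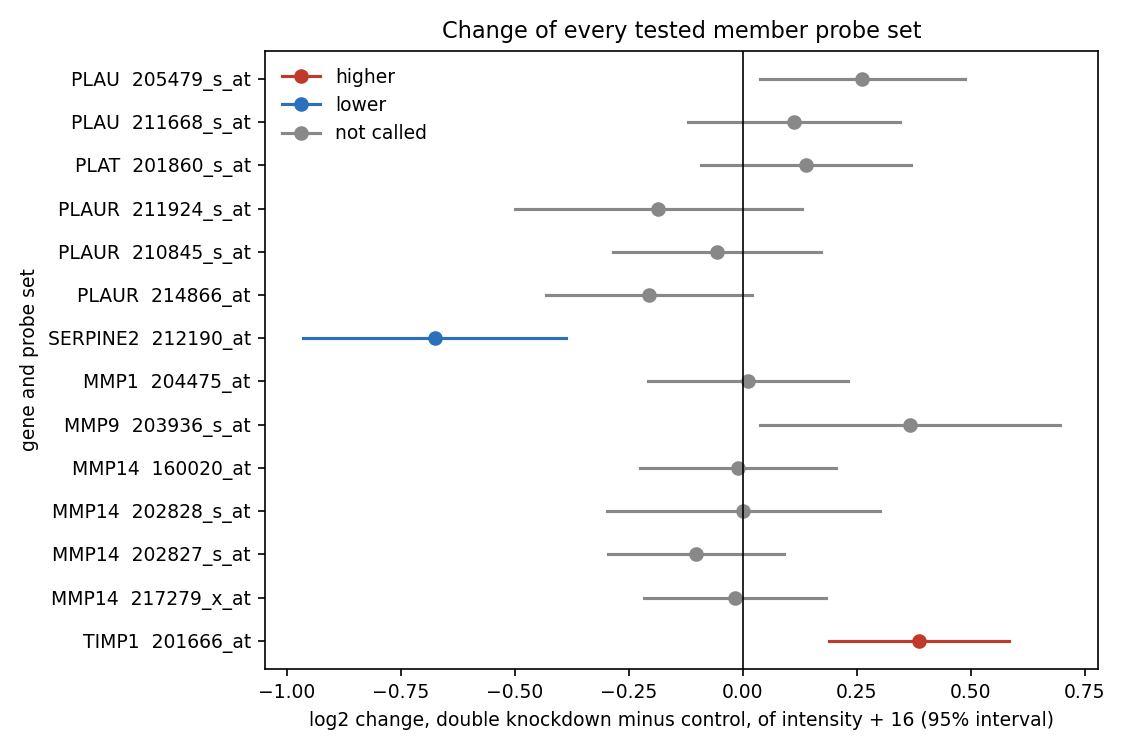
Log2 change (labelled double knockdown minus control, of intensity + 16) of the 14 member probe sets tested, with 95% intervals from limma over all probe sets. Only the intervals of TIMP1, SERPINE2, MMP9 and the brighter PLAU probe set leave out 0, and of these TIMP1 (red) and SERPINE2 (blue) were called.

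When every probe set was tested on its own, 2 of the 14 member probe sets above the minimum were called, the same TIMP1 and SERPINE2 probe sets (limma adjusted p = 0.0272 and 0.0156). Over all 27280 probe sets tested 13.1% were called, 7.89% higher and 5.20% lower. Members with several probe sets above the minimum were PLAU, PLAUR and MMP14. Signs agreed within PLAU and within PLAUR, and MMP14 had 3 negative changes and 1 of 0.0016.

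**Figure D3:**
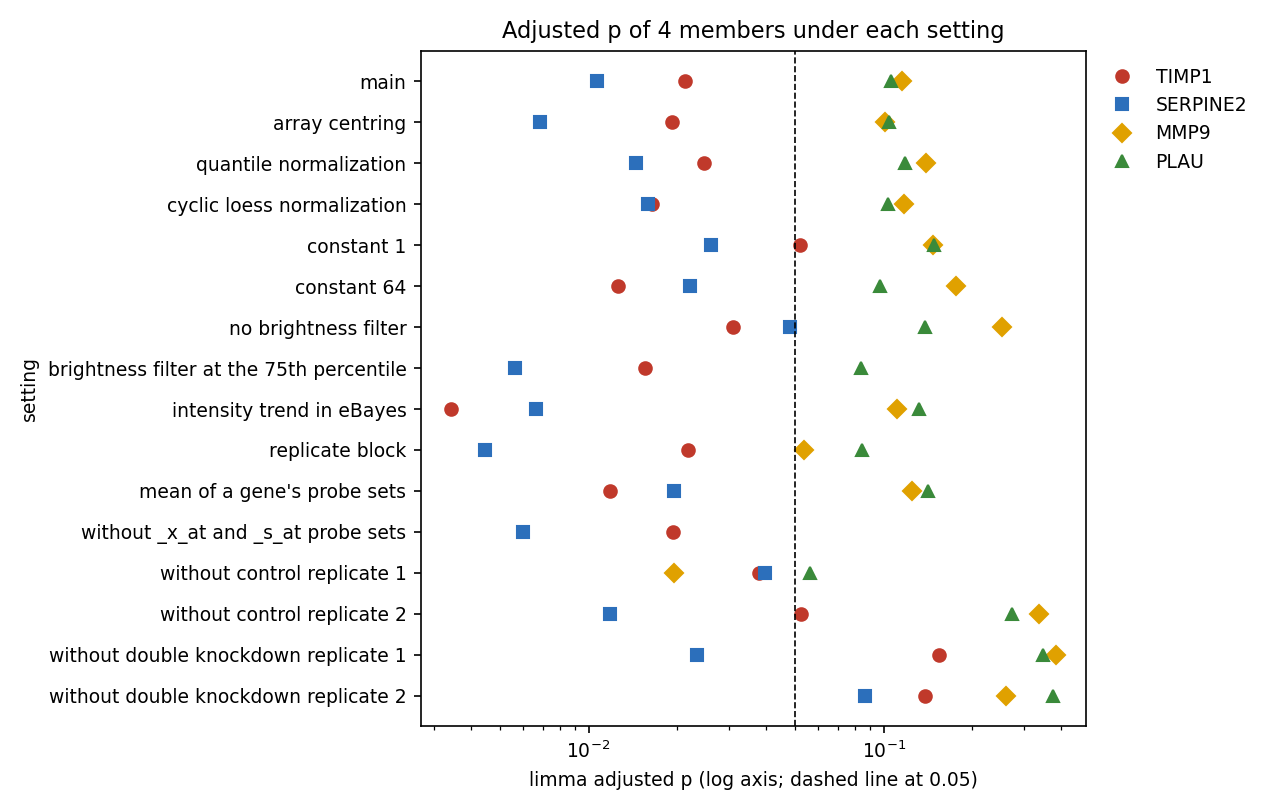
Limma adjusted p (log axis) of TIMP1, SERPINE2, MMP9 and PLAU under the setting used in the text ("main") and each alternative. SERPINE2 crosses the dashed line at 0.05 only without double knockdown replicate 2, TIMP1 crosses it with a constant of 1 and without any of 3 arrays, MMP9 passes it only without control replicate 1, and PLAU stays above it.

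For the largest rise and the largest fall among the members, the genes with the closest pattern over the 4 arrays were looked up by the distance between log2 values after subtracting each gene's control mean. Closest to TIMP1 were RAC2 (distance 0.011), ZMYM2 (0.021) and DUSP16 (0.025), with log2 changes of 0.39, 0.40 and 0.40. Closest to SERPINE2 were KANK1 (0.089), IRX3 (0.093) and C1orf116 (0.096), with log2 changes of -0.66, -0.71 and -0.68. KANK1 read 417 and 369 in the control against 257 and 229 in the labelled double knockdown. With 4 arrays in 2 groups such likeness describes these arrays only.

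Other genes of the plasminogen and metalloproteinase systems were taken from 9 lists. Of 129 genes 123 had a probe set and 90 were tested, of which 8 rose and 7 fell (16.7% against 16% of all genes tested), with a median log2 change of -0.04. A share this close to that of all genes is not a result about these genes.

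In the list of inhibitors of plasmin, of plasminogen activators or of related proteases, 3 of 4 tested genes rose. The median log2 change of the 4 was 0.65. Over all genes tested 9.41% were called higher, and the median was -0.0086. The other 4 of the 8 with a probe set, SERPINA5, A2M, CPB2 and PZP, lay below the minimum and were not tested. SERPINE2, which inhibits both plasminogen activators, is a member and so not in this list, and it was called lower (log2 change -0.67). The list was chosen with earlier results of these data known, so 3 of 4 is not a result about such inhibitors as a class. TFPI2, a Kunitz inhibitor of plasmin, read 390 and 405 in the control against 939 and 994.5 in the labelled double knockdown (log2 change 1.25 ± 0.09 SE, limma adjusted p = 0.000148). The groups were far apart, and TFPI2 kept its call under all 15 alternatives. SERPINF2, the plasmin inhibitor alpha-2-antiplasmin, read 26.1 and 31.1 against 61.2 and 66.5 (log2 change 0.84 ± 0.10 SE, adjusted p = 0.00156) and was called under each of its 14 alternatives. SERPINI1, neuroserpin, an inhibitor of PLAT, read 33.2 and 24.5 against 47.8 and 43.3 (log2 change 0.46 ± 0.11 SE, adjusted p = 0.0301), and its adjusted p was 0.0777 without control replicate 2, 0.180 without double knockdown replicate 1 and 0.114 without double knockdown replicate 2. SERPINI1 also lost its call with a constant of 64 (0.24, adjusted p = 0.0677) and with no brightness filter (adjusted p = 0.0817). TFPI, at 0.17, was not called.

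Plasminogen itself (PLG) lay below the minimum, at a mean of 12.4 in the control against 11.9 in the labelled double knockdown. Of 10 tested receptors and partners 2 fell, none rose and 8 were not called, with a median log2 change of -0.14. Over all genes tested 6.60% were called lower. The change was negative for 9 of the 10, as it was for 6740 of the 12951 genes tested. THBS1, a matrix glycoprotein that binds plasminogen, read 328 and 177 in the control against 55.96 and 50.8 in the labelled double knockdown (log2 change -1.89 ± 0.23 SE, limma adjusted p = 0.00199). The control arrays differed widely from each other but stayed above both others, and the mean over the probe sets of THBS1 gave -0.70. S100A10, which binds plasminogen together with ANXA2, read 12910 and 12200 against 10030 and 10120 (log2 change -0.32 ± 0.09 SE, adjusted p = 0.0433). It lost that call when any array was left out, with adjusted p from 0.0505 without control replicate 2 to 0.109 without control replicate 1 and 0.234 without either double knockdown replicate. On all 4 arrays S100A10 was not called with quantile (0.0622) or cyclic loess normalization (0.0755) or with a constant of 1 (0.0908). ANXA2 had a log2 change of -0.00041, F12 of 0.25 and LRP1, a receptor that clears complexes of proteases and inhibitors, of -0.19, none called.

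None of 9 further metalloproteinases tested by limma was called or had an unadjusted p under 0.05, and 10 of the 19 with a probe set, MMP3, MMP7 and MMP13 among them, lay below the minimum. Their median log2 change was -0.02. MMP25, MMP17, MMP24 and MMP28, with the smallest p, had changes of 0.13, -0.14, -0.13 and 0.09, and MMP28 was the brightest of its list at means of 901 and 963. Averaged over its probe sets MMP28 turned to -0.37 and was called lower (adjusted p = 0.0142). None of 5 further metalloproteinase inhibitors was called either, and 1, TIMP3, had an unadjusted p under 0.05. TIMP3, which stays bound to the matrix, had a log2 change of 0.29 ± 0.12 SE (adjusted p = 0.157), SPOCK1 of -0.19, TIMP2 of -0.14 and RECK, a membrane-anchored inhibitor, of 0.03. Without control replicate 1 TIMP3 was called at 0.47 (adjusted p = 0.0290), without control replicate 2 it was 0.11 (adjusted p = 0.469), and averaged over its probe sets it was -0.12 (adjusted p = 0.517). TIMP2 was called lower at -0.36 without control replicate 2 (adjusted p = 0.0482) and was 0.090 without control replicate 1 (adjusted p = 0.595).

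**Figure D4:**
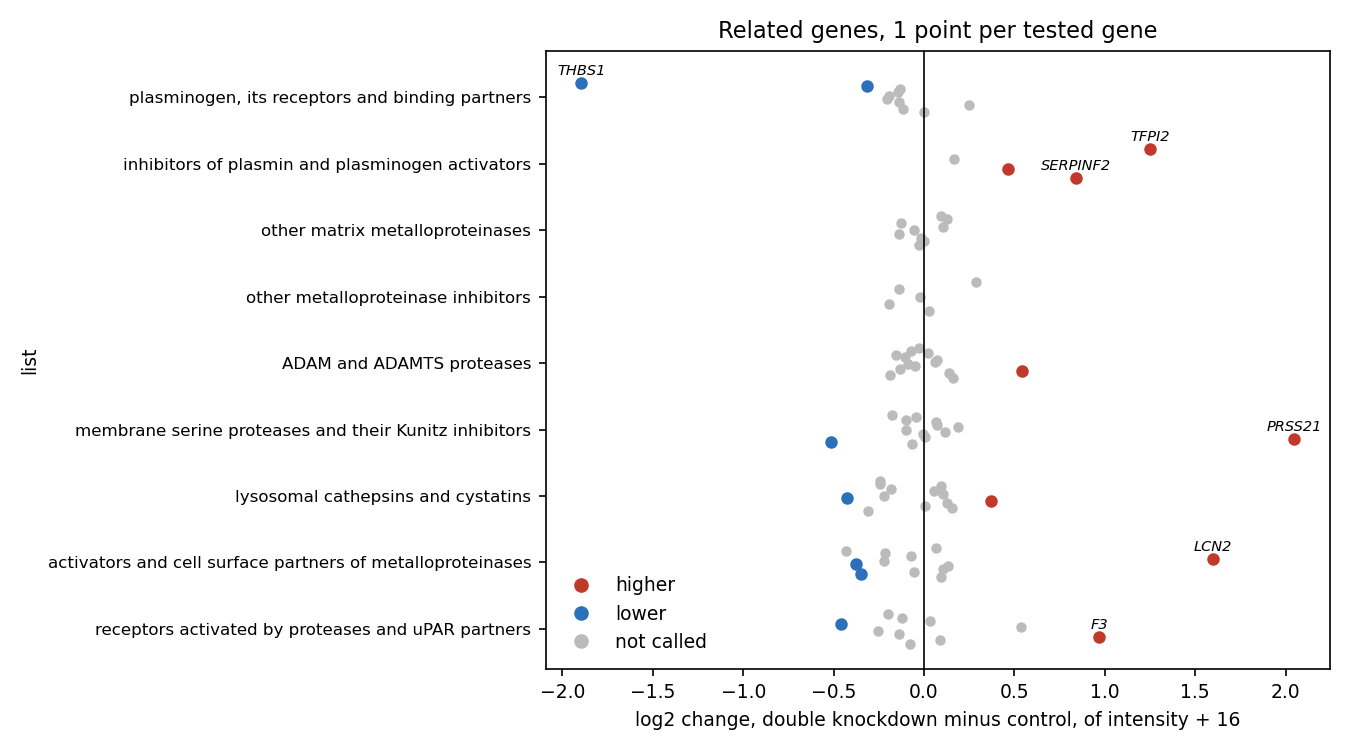
Log2 change (labelled double knockdown minus control, of intensity + 16) of each tested gene in the 9 lists of related genes, 1 point per gene; red, called higher; blue, called lower; grey, not called. PRSS21, LCN2 and TFPI2 have the highest values, at 2.05, 1.60 and 1.25, THBS1 the lowest, at -1.89.

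Among 14 tested ADAM and ADAMTS proteases 1 rose. ADAM19 read 9.45 and 10.1 in the control, below the minimum, against 20.2 and 22.9 in the labelled double knockdown (log2 change 0.54 ± 0.09 SE, limma adjusted p = 0.00705), and had adjusted p = 0.0822 without double knockdown replicate 2. Averaged over its probe sets ADAM19 stood at 0.32 (adjusted p = 0.0231). It was tested only because of its higher group. ADAM15, ADAMTS10 and ADAM10 had changes of -0.19, -0.16 and 0.16 and were not called. Among 13 tested serine proteases and Kunitz inhibitors 1 rose and 1 fell. PRSS21, testisin, a membrane serine protease, read 13.5 and 18.2 in the control against 107 and 124 in the labelled double knockdown (4.13-fold on the scale used, log2 change 2.05 ± 0.11 SE, adjusted p = 5.5e-05), with a call under all 15 alternatives. HTRA1, a secreted serine protease, read 923 and 903 against 633 and 634 (log2 change -0.52 ± 0.08 SE, adjusted p = 0.00702), with adjusted p of 0.0634 without double knockdown replicate 1 and 0.0686 without double knockdown replicate 2. SPINT2 (0.19) and TMPRSS4 (-0.18) were not called.

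Of 13 cathepsins and cystatins 1 rose and 1 fell. CTSB, a lysosomal protease that can activate pro-urokinase, read 2397 and 2191 in the control against 3034 and 2908 in the labelled double knockdown (log2 change 0.37 ± 0.09 SE, limma adjusted p = 0.0305). CTSC, a dipeptidyl peptidase, read 1738 and 1718 against 1249 and 1319 (log2 change -0.42 ± 0.09 SE, adjusted p = 0.0155). CTSB had adjusted p of 0.079 without control replicate 2, 0.203 without double knockdown replicate 1 and 0.149 without double knockdown replicate 2, and CTSC 0.138 and 0.0944 without double knockdown replicates 1 and 2. On all 4 arrays CTSB also lost its call with a constant of 1 (adjusted p = 0.0656), without _x_at and _s_at probe sets (log2 change 0.27, adjusted p = 0.0719) and averaged over its probe sets (0.20, adjusted p = 0.0906). CST3 and CTSZ had changes of -0.31 and -0.24 and were not called.

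Of 12 tested activators and partners of metalloproteinases 1 rose and 2 fell. LCN2, lipocalin 2, which forms a complex with MMP9, read 159 and 158 in the control against 467 and 562 in the labelled double knockdown (3.03-fold, log2 change 1.60 ± 0.11 SE, limma adjusted p = 0.000123), and was called under all 15 alternatives. CLDN1, a tight junction protein, fell from means of 1849 to 1422 (adjusted p = 0.0222) and CAV1, caveolin, from 4722 to 3709 (adjusted p = 0.0389). CLDN1 had adjusted p of 0.162 and 0.146 without double knockdown replicates 1 and 2, and CAV1 0.109 without control replicate 1 and 0.139 and 0.275 without double knockdown replicates 1 and 2. On all 4 arrays CAV1 had adjusted p of 0.0585 with quantile and 0.0659 with cyclic loess normalization, 0.0807 with a constant of 1 and 0.0564 with no brightness filter, and CLDN1 0.0535 with a constant of 1. SDC1, a syndecan, had a log2 change of -0.43 ± 0.14 SE and adjusted p = 0.0765, and was called without control replicate 2 (-0.63, adjusted p = 0.0180) but stood at -0.23 without control replicate 1 (adjusted p = 0.241). It was also called averaged over its probe sets (-0.63, adjusted p = 0.0304) and without _x_at and _s_at probe sets (-0.83, adjusted p = 0.00453).

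The last list held receptors activated by proteases, partners of the urokinase receptor and, besides these, tissue factor (F3). Of its 10 tested genes 1 rose and 1 fell. F3, tissue factor, read 367 and 237 in the control against 667 and 527 in the labelled double knockdown (log2 change 0.97 ± 0.19 SE, limma adjusted p = 0.0150), with adjusted p = 0.0834 without double knockdown replicate 1 and 0.0821 with no brightness filter. ITGAV, an integrin subunit that binds vitronectin, read 1464 and 1346 against 1080 and 956 (log2 change -0.46 ± 0.10 SE, adjusted p = 0.0194), with adjusted p of 0.0645 without control replicate 1 and of 0.0592 and 0.176 without double knockdown replicates 1 and 2. ITGA5, of the fibronectin receptor, had a log2 change of 0.54 ± 0.16 SE and adjusted p = 0.0627, and was called without control replicate 1 (0.82, adjusted p = 0.00521) but stood at 0.26 without control replicate 2 (adjusted p = 0.111). It was also called with the stricter brightness filter (adjusted p = 0.0391) and without _x_at and _s_at probe sets (adjusted p = 0.0475). ITGB5, at -0.20, was not called over all arrays; it was called without control replicate 2 (-0.38, adjusted p = 0.0477) and stood at -0.027 without control replicate 1.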

How the data were processed

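The deposited values, 1 for each of 54675 probe sets on each of 4 arrays, are intensities on a linear scale, judged by their range. The summary and normalization that the authors applied to the deposited intensities are not given in the sources used here. Array medians lay between 14.5 and 14.7, and no further normalization was applied. Groups came from sample titles. The brightest probe set naming 1 gene stood for that gene, and genes whose mean reached the median probe set mean, 14.7, were tested. Values were taken as log2(intensity + 16) and tested across all genes, or all probe sets, by limma (version 3.58.1, R 4.3.3; lmFit, eBayes, two-sided, no covariate). Benjamini-Hochberg adjustment ran over the whole table, and called means an adjusted p under 0.05. Standard errors are moderated. Symbols were updated through RefSeq for 41037 of 41091 probe sets with 1 gene. The test was also run on simulated data with independent normal errors. Its outcome is not given here and does not vouch for the calls.

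The members and lists were chosen with earlier results of these data known. All members were named, and from each list of related genes the up to 4 with the smallest p and every called gene where there were 5 or fewer. Markers were named as fixed lists; PLG, ANXA2 and the dim metalloproteinases were named after their values were seen. The alternatives were those listed in the closing section.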

Additional observations from a re-analysis of the deposited data

How the results depend on the processing

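Alternatives comprised centring of arrays, normalization by quantiles or by cyclic loess, constants of 1 and 64, no brightness filter and one at the 75th percentile, an intensity trend in eBayes, the sample number as a replicate block, averages over all probe sets of each gene, no probe sets with IDs ending in _x_at or _s_at, and each array left out. For the 8 members 105 of 115 values kept direction and side of the threshold, 5 lost a call, 1 gained one and 4 changed sign, none of them called. For the related genes named for a small p or a call, with CBL, CBLB and CBLC, the numbers were 504 of 566, 45, 12 and 5. The markers, the genes closest in pattern, PLG, ANXA2 and the dim metalloproteinases were not followed through the alternatives. With each array left out in turn, the count of called genes ran from 536 to 1995 (378 to 1120 higher, 158 to 875 lower), of called probe sets from 184 to 2529, of called members from 0 to 3, of called member probe sets from 0 to 1 and of called related genes from 6 to 18. The lowest counts came without a double knockdown array, when the error comes from the control pair and the lone array is assumed to vary like it. A constant of 1 left 1 member and 1 member probe set called, and no brightness filter left 1 member probe set and 1560 probe sets called. Without 1 array MMP1 ran from -0.067 to 0.092, MMP14 from -0.070 to 0.050 and TIMP2 from -0.36 to 0.090 on the log2 scale. MMP28 was -0.37 and called lower (adjusted p = 0.0142) and TIMP3 -0.12 with averages over probe sets. RECK was -0.0030 with quantile normalization and -0.030 without _x_at and _s_at probe sets. The causes were not tested. Sample numbers are not said to pair arrays, and the deviations of same-numbered arrays correlated at r = 0.244 across genes. With the replicate block 2504 genes, 2 members and 17 related genes were called. ITGA5 (adjusted p = 0.0447) and SDC1 (0.0237) gained a call there. PLAU, PLAT and MMP9 have no other probe sets when _x_at and _s_at are left out, and MMP1 and MMP9 lie below the stricter filter. Dim probe sets limit what can be seen of MMP1 and of genes below the minimum.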
